A study of Mus musculus with 9 samples.

Results

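Genes of protein folding in the endoplasmic reticulum (ER), the unfolded protein response and the early secretory pathway were examined in mammary gland RNA. The list of 40 genes was chosen by function and by gene name. It holds 4 stress sensors and their transcription factors, 14 chaperones and folding enzymes, 6 genes of ER-associated degradation, 9 genes of translocation into the ER and 7 genes of vesicle coats. The array named 37 of the 40 members directly, through 74 of its 41174 probes. Sel1l and Sec62 were found only through their accession numbers, by 4 probes, and Sec31a only through an older symbol.

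Mouse mammary gland number 4 was collected on lactation day 2 from 4 wild-type (WT) dams and 5 hNAG-1 transgenic dams, and total RNA of each dam was hybridized to 1 single-colour Agilent array. hNAG-1 dams carry a transgene built to express human NAG-1 (also called GDF15, a secreted member of the TGF-beta superfamily) in all tissues, and WT dams are its nontransgenic control. The labels spell the strain background of both genotypes as C57BL/7 and do not say which transgenic line was used, and the age of the dams at sampling is not given in the sources used here. No probe for the human transgene was used, so the genotype labels were not checked against it. WT 1 lay on slide 1, hNAG-1 1 to 4 on slide 2, and WT 2 to 4 with hNAG-1 5 on slide 3, so slide 3 alone held both genotypes.

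Secretory cells thread newly made milk proteins through the Sec61 channel into the ER, where BiP (Hspa5), calnexin, calreticulin and the protein disulfide isomerases fold them. Proteins that do not fold are sent back out and degraded. When unfolded protein accumulates, the sensors IRE1 (Ern1), PERK (Eif2ak3) and ATF6 signal to the nucleus, and IRE1 splices the mRNA of Xbp1 into the form that codes for an active transcription factor. Folded cargo leaves the ER in COPII-coated vesicles, and COPI-coated vesicles bring escaped residents back. In the mammary gland this machinery expands as the alveolar cells begin to secrete.

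Promoter elements through which ATF6 and XBP1 are known to act are short enough to be read directly, and they are shown to describe members of this list. The RefSeq promoter table (GRCm38.p6, 250 bases before to 50 after each start) held 35 of the 40 members. The ER stress response element (ERSE, CCAAT and CCACG with 9 bases between) was found on either strand in 7 of these 35, against 39 of all 32851 promoters (0.119%). The shorter ERSE-II (ATTGG and CCACG with 1 base between) was found in 2 members, against 12 promoters (0.0365%). The ERSE windows follow 5′ to 3′ along the strand of the gene, with the fixed bases of the element in capitals.

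Hspa5, chr2:34772005-34772063, plus strand: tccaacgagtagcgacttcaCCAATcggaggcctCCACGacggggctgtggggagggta
Hsp90b1, chr10:86705513-86705676, minus strand: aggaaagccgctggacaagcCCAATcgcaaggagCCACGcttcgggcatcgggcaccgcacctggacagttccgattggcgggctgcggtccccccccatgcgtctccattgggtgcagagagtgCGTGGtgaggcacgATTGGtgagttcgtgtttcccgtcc
Calr, chr8:84847055-84847113, minus strand: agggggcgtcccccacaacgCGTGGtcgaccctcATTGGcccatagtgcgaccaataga
Canx, chr11:50325780-50325838, minus strand: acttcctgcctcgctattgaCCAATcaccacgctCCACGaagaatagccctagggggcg
Pdia6, chr12:17266471-17266529, plus strand: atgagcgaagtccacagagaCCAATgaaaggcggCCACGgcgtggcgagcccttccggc
Dnajc3, chr14:118937807-118937865, plus strand: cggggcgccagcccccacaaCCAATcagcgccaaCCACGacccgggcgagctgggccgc
Syvn1, chr19:6046512-6046570, plus strand: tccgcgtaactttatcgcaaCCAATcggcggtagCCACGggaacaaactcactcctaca

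The Calr element reads on the opposite strand, and Hsp90b1 holds one copy in each orientation. The 2 promoters with ERSE-II are those of Herpud1 and Dnajb11, and in Dnajb11 the element lies just after the start.

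Herpud1, chr8:94386357-94386407, plus strand: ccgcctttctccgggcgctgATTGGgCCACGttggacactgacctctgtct
Dnajb11, chr16:22857832-22857862, plus strand: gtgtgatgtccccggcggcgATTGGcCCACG

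Both elements share the letters CCACG on one strand or the other, so they are not independent searches. A match to these letters describes the window and is not evidence that a factor binds it. The list was chosen by function and holds genes of the unfolded protein response, so the shares above are no test. Members were counted as genes and the whole table as promoters.

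No member passed the threshold between genotypes in the fit over all probes (limma, Benjamini-Hochberg adjustment, all 9 arrays). Of the 37 members represented by their brightest probe, 0 had an adjusted p under 0.05, against 0.00243% of all probes, and 0 had an unadjusted p under 0.05, against 5.62% of all probes. The methods' test, a plain test of each probe with no adjustment, gave 1 member, Ssr2, against 4.87% of all probes, and 0 members after Benjamini-Hochberg adjustment. The further limits of the methods, on fold change and signal, were not applied to that count, and Ssr2, at 1.30-fold, lies below their fold limit of 1.5. The lowest adjusted p of any member was 0.654. Standard errors of the log2 differences ran from 0.13 to 0.44. With the 3 other members included, the 95% interval of the difference lay within 1.5-fold in either direction for 26 of 40 genes and within 2-fold for 39 of 40, the exception being Sec23b. P-values here measure the spread between individual dams of each genotype.

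The members' point estimates were mostly on the higher side in hNAG-1, and this balance turned with the scaling. At the 75th-percentile scaling 30 of 37 were higher and 7 lower, against 48.3% of all probes higher and 52.5% of the probes well above background on all 9 arrays. The median difference was 0.11 on the log2 scale, against -0.01 over all probes. Without any scaling 13 of 37 were higher, against 29.4% of all probes. Quantile normalization gave 22 of 37 (55.8% of all probes), and median scaling gave 37 of 37 (68.8%). Those last settings moved the median of all probes by -0.15 for no scaling, 0.05 for quantile normalization and 0.21 for median scaling. With slide as a block, which leaves hNAG-1 5 to be compared with WT 2 to 4 on slide 3, 25 of 37 were higher, against 68.5% of all probes.

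**Figure D1:**
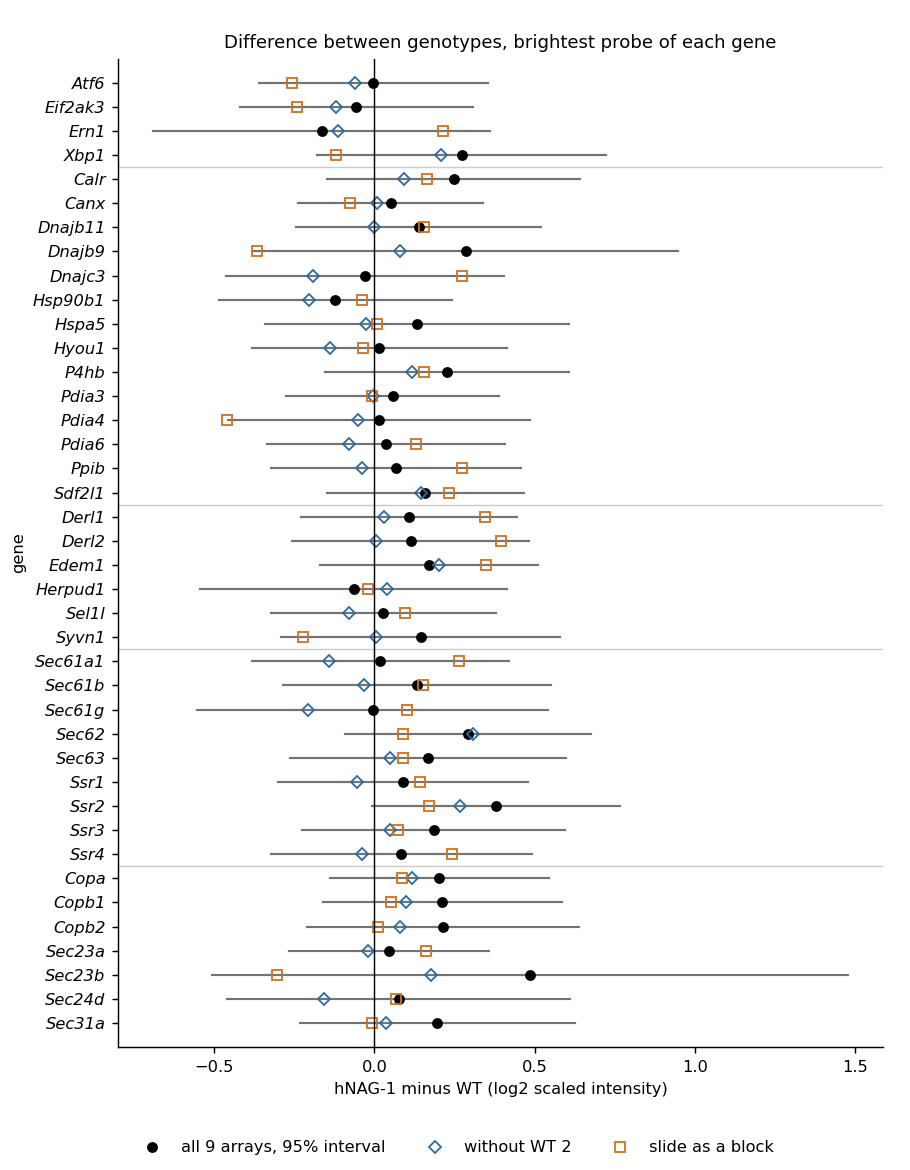
Difference between genotypes, hNAG-1 minus WT on the log2 scale (horizontal axis), for the brightest probe of each of the 40 members, grouped by class from sensors at the top to vesicle coats at the bottom. Filled circles with lines are the estimate and 95% interval from all 9 arrays, diamonds the estimate without WT 2 and squares the estimate with slide as a block. Every filled interval includes 0 and 33 of 40 circles lie to its right, a balance that falls to 20 of 40 without WT 2.

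A single gland carried much of that balance. WT 2 was the lowest of the 9 arrays for 29 of 37 members, against 29.7% of all probes, and hNAG-1 1 was the highest for 14, against 9.2%. Without WT 2 the count higher in hNAG-1 was 18 of 37, against 45% of all probes, and the median difference was -0.0029. These ranks also depended on the scaling. WT 2 had the highest 75th percentile of raw signal (1185) and hNAG-1 1 the lowest (533), the other arrays lying between 595 and 956, and without scaling WT 2 was the lowest array for 0 of 37 members (0.629% of all probes). It was the lowest for 14 of 37 after quantile normalization (22% of all probes), and for 29 of 37 after median scaling (35.5%) and after normexp background correction (47.6%).

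Marker genes of other cell types also set WT 2 apart. Of 7 lymphocyte markers 7 were measured, and their summed scaled intensity was 24125 in WT 2, between 2397 and 4609 in the other WT arrays and between 1758 and 5960 in hNAG-1. The 6 plasma cell markers summed to 28244 in WT 2, against 1812 to 6893 in the other WT arrays and 1266 to 4503 in hNAG-1. The 8 secretory epithelium markers, among them the caseins and Wap, were well above background on all 9 arrays, as the label mammary gland requires. At the 75th-percentile scaling their sum was lowest in WT 2, at 1219390 against 1582940 to 2278270 in the other 8 arrays. The Wap probe was flagged as saturated on WT 3 and hNAG-1 5, where the sum is a lower limit. The 5 myoepithelial markers summed to 57248 in WT 2 and to 99115 to 138210 elsewhere. The secretory epithelium and myoepithelial sums are scaled values. WT 2 had the highest 75th percentile of raw signal, so its values were scaled down most. Whether WT 2 is lowest in either sum without scaling was not examined. No list had a marker at 0, and the remaining lists overlapped between genotypes: 416103 to 785787 in WT and 579231 to 717690 in hNAG-1 for 7 adipocyte markers, 94883 to 151570 and 107637 to 188598 for 5 fibroblast markers, 17217 to 25160 and 12251 to 30855 for 5 macrophage markers, and 6255 to 8532 and 5738 to 10933 for 5 endothelial markers. Marker by marker, the estimates leaned one way in most lists at the 75th-percentile scaling. Higher in hNAG-1 were 8 of 8 secretory epithelium markers with a median log2 difference of 0.10, 7 of 7 adipocyte markers (0.45), 5 of 5 myoepithelial (0.35), 5 of 5 fibroblast (0.29), 4 of 5 endothelial (0.16), 2 of 5 macrophage (-0.00034), 1 of 6 plasma cell (-0.78) and 0 of 7 lymphocyte markers (-1.14), beside the 30 of 37 members. Without WT 2 the secretory epithelium count fell to 1 of 8 with a median of -0.06, the macrophage count rose to 4 of 5 (0.26) and the lymphocyte count stayed at 0 of 7 (-0.29). The other lists then gave 6 of 7 adipocyte (0.32), 5 of 5 myoepithelial (0.16) and 5 of 5 fibroblast markers (0.13). Endothelial markers gave 4 of 5 (0.26) and plasma cell markers 1 of 6 (-0.26). Without scaling the secretory epithelium estimates were -0.11 for Csn1s1, -0.09 for Csn2, -0.15 for Csn3 and -0.09 for Wap. They were -0.02 for Krt18, -0.01 for Krt8, 0.02 for Elf5 and 0.20 for Lalba. The part of these marker differences in the members' values was not tested. In whole glands, fewer cells of a type and less RNA per cell cannot be told apart.

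**Figure D2:**
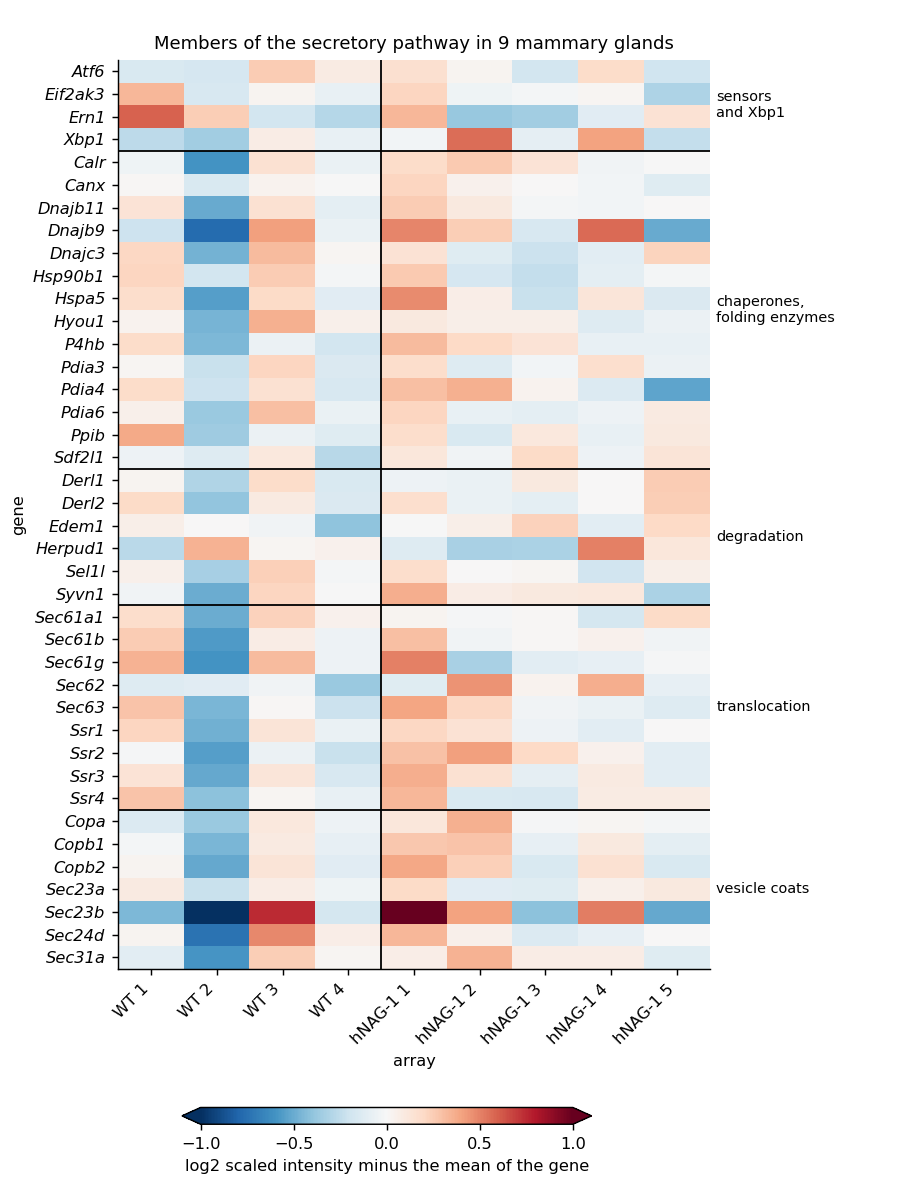
Level of each of the 40 members (rows, grouped by class) in each of the 9 arrays (columns, WT left of the line), as log2 scaled intensity minus the mean of that gene over the arrays. Red is above and blue below the mean, and the scale ends at 1 in either direction. The WT 2 column is blue for most genes under this scaling, and Sec23b and Dnajb9 change most from array to array.

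The 4 genes of the sensor class had a median difference of -0.03. Xbp1 codes for the transcription factor made when IRE1 splices its mRNA (probe A_52_P185079, mm7 chromosome 11, 5476970 to 5477029, plus strand). Its scaled intensity, the signal after all arrays were set to the same 75th percentile, was 14828, 13976, 18635 and 16850.2 in WT 1 to 4. It was 17432, 26100.2, 16661, 23382 and 15064 in hNAG-1 1 to 5. Only hNAG-1 2 and 4 lay above all WT arrays, and the other 3 hNAG-1 glands fell inside the WT range. WT dams averaged 16072 ± 2091 (SD, n = 4) and hNAG-1 dams 19728 ± 4754 (SD, n = 5), and the log2 difference was 0.27 (95% interval -0.18 to 0.72) with an adjusted p of 0.654 (limma). With slide as a block the estimate was -0.12. Xbp1 was read by 1 probe, whose place relative to the spliced stretch was not examined, and spliced and unspliced forms were not separated.

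Atf6 codes for the sensor that is itself cut to release a transcription factor (A_51_P129108, mm7 chromosome 1, 170684024 to 170684083, minus strand). WT 1 to 4 gave 1092, 1081, 1449.7 and 1287, and hNAG-1 1 to 5 gave 1362, 1240.3, 1073, 1381 and 1057. hNAG-1 3 and 5 lay just below the lowest WT array and the other 3 hNAG-1 glands inside the WT range, with a difference of -0.0038 (95% interval -0.36 to 0.35). Eif2ak3 codes for PERK, the kinase that slows translation. Its values were 1436, 1025, 1168 and 1086 in WT and 1331, 1112, 1130.0, 1161 and 923 in hNAG-1. The highest value was that of WT 1 and the lowest that of hNAG-1 5, and the difference was -0.06 (95% interval -0.42 to 0.31). Ern1, which codes for IRE1, had the lowest estimate of the class. It read 216, 171, 127 and 118 in WT and 181, 111, 113, 133 and 159 in hNAG-1, with WT 1 the highest and hNAG-1 2 the lowest array. Its difference was -0.17 (95% interval -0.69 to 0.36), and 0.21 with slide as a block.

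Among the 14 chaperones and folding enzymes, 12 were higher and 2 lower, with a median of 0.06, and without WT 2 only 5 of 14 were higher with a median of -0.02. Hspa5 codes for BiP, the main Hsp70 chaperone of the ER lumen (A_51_P395098, mm7 chromosome 2, 34783421 to 34783480, plus strand), and its promoter holds the ERSE printed first above. It read 89521, 54224, 90760.5 and 73502 in WT 1 to 4 and 110137, 83251, 68123, 86236 and 71727 in hNAG-1 1 to 5. The extremes were WT 2 and hNAG-1 1, and the other 7 arrays interleaved. The log2 difference was 0.13 (95% interval -0.34 to 0.61), and -0.03 without WT 2.

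Hsp90b1, the ER Hsp90 chaperone GRP94, had the largest fall of its class as an estimate (A_52_P624149, mm7 chromosome 10, 86249236 to 86249295, minus strand). Its values were 57721, 43723, 59316 and 48878 in WT and 59338, 44131, 42130.3, 46282 and 48879.6 in hNAG-1. Every hNAG-1 value except that of hNAG-1 3 lay inside or above the WT range, and the difference was -0.12 (95% interval -0.48 to 0.24). A second probe of the gene gave 0.04. Dnajb9 codes for ERdj4, a BiP cochaperone and a target of XBP1, and had the highest estimate of the class (A_51_P198835, mm7 chromosome 12, 42082310 to 42082369, minus strand). WT 1 to 4 read 1413, 959.5, 2169 and 1564 and hNAG-1 1 to 5 read 2289, 1941, 1464, 2414 and 1149. The genotypes overlapped over most of their range, with WT 2 and hNAG-1 5 at the bottom and hNAG-1 1, hNAG-1 4 and WT 3 at the top. The difference was 0.28 (95% interval -0.38 to 0.95), but -0.37 with slide as a block and 0.08 without WT 2.

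Sdf2l1 codes for a BiP-associated protein of the ER lumen. It read 5149.8, 4877, 5727 and 4401 in WT and 5765, 5217, 6093, 5145 and 5844 in hNAG-1, and its difference was 0.16 (95% interval -0.15 to 0.47). hNAG-1 1, 3 and 5 exceeded every WT array. Calr and P4hb, the lectin chaperone calreticulin and the founding protein disulfide isomerase, had estimates of 0.25 and 0.23. The remaining estimates were 0.14 for Dnajb11, 0.07 for Ppib, 0.06 for Pdia3, 0.05 for Canx, 0.04 for Pdia6, 0.01 for Pdia4, 0.01 for Hyou1 and -0.03 for Dnajc3. The other probes of Pdia6 gave 0.15, 0.33 and 0.14, and those of Dnajc3 gave 0.14, -0.04 and 0.24. Canx varied least of all 40 members, its highest array being 1.29-fold above its lowest. A second probe of Hyou1, an Hsp110-type chaperone, passed the background call on 1 WT array of 4 and on no hNAG-1 array, so it gave no usable difference.

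**Figure D3:**
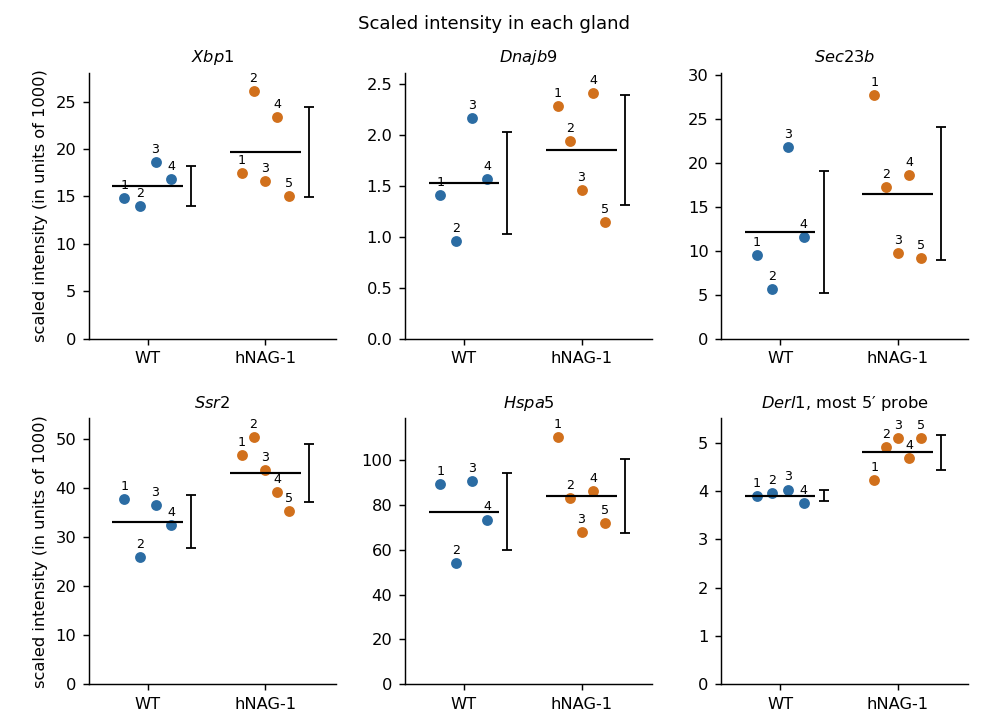
Scaled intensity, in units of 1000 and from 0, in each WT gland (left) and each hNAG-1 gland (right) for Xbp1, Dnajb9, Sec23b, Ssr2, Hspa5 and the most 5′ probe of Derl1. Points carry the replicate number, the long bar is the mean and the side bar is 1 SD. Genotypes overlap in all panels except that of the Derl1 probe, where the lowest hNAG-1 gland (4219) lies above the highest WT gland (4032).

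Members with and without an ERSE or ERSE-II lay in overlapping ranges. The 9 members with either element ran from -0.12 to 0.25 with a median of 0.05, 6 of them higher. The 26 members whose promoter in the table held neither ran from -0.17 to 0.49 with a median of 0.15, 23 of them higher. The 5 without an entry, Atf6, Derl1, Hyou1, Sec61a1 and Ssr2, had a median of 0.02. Without WT 2 the medians of the first pair of groups were -0.0029 and 0.02. This is a description of the estimates, with no test.

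Genes of ER-associated degradation had a median of 0.11, with 4 of 5 directly named members higher. Without WT 2, 5 of 5 were higher with a median of 0.03. Derl1 codes for a channel component through which misfolded proteins leave the ER, and its 4 probes gave the estimates 0.11, 0.11, 0.29 and 0.09. The third of these lies nearest the 5′ end of the gene (A_52_P300424, mm7 chromosome 15, 57944392 to 57945375, minus strand), and its genotypes did not overlap. It read 3888, 3957, 4032 and 3751 in WT 1 to 4 and 4219, 4907, 5106, 4683 and 5095 in hNAG-1 1 to 5. Its difference was 0.29 (95% interval 0.01 to 0.57), with an unadjusted p of 0.0412 and an adjusted p of 0.654 in limma and a two-sided exact permutation p of 0.0159. Without WT 2 it was 0.30, and with slide as a block 0.38 (unadjusted p of 0.15 in limma). The brightest Derl1 probe read 10508, 8401, 11719.5 and 9312 in WT and 9959, 9844, 11073, 10364 and 12339 in hNAG-1, and there the genotypes overlapped.

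Herpud1 codes for a stress-induced membrane protein of the degradation complex and carries the ERSE-II shown above (A_51_P434101, mm7 chromosome 8, 92984261 to 92984320, plus strand). Its values were 3092, 4724, 3772 and 3838 in WT and 3410.3, 2975, 2987, 5277 and 4032 in hNAG-1. Unlike most members it was high in WT 2, which only hNAG-1 4 exceeded, and its difference was -0.06 (95% interval -0.54 to 0.41). Edem1, which helps extract misfolded glycoproteins, read 3079.5, 2967, 2891 and 2236 in WT and 2954, 3075, 3470.1, 2750.4 and 3406 in hNAG-1. WT 4 was its lowest array and hNAG-1 3 its highest. The estimate of 0.17 (95% interval -0.17 to 0.51) was the highest of the class, but its other probes gave 0.0036 and -0.20. Estimates were 0.11 for Derl2, 0.14 for the ubiquitin ligase gene Syvn1 and 0.03 for Sel1l.

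Translocation genes had a median of 0.11, with 7 of 8 directly named members higher. All 8 had WT 2 as their lowest array, and without it 3 of 8 were higher with a median of -0.03. Sec61a1 codes for the pore of the channel (A_52_P489729, mm7 chromosome 6, 88578704 to 88578763, minus strand). WT 1 to 4 gave 95776, 60228, 99401 and 87330.0, and hNAG-1 1 to 5 gave 86412, 84097, 85253, 75064 and 96707. The hNAG-1 arrays all lay inside the WT range, and the difference was 0.02 (95% interval -0.38 to 0.42). The other Sec61a1 probes gave higher estimates. A_52_P650279 read 5301, 4202, 5264 and 5157 in WT and 6328, 6918, 6457, 4979 and 6635 in hNAG-1, where all hNAG-1 glands but hNAG-1 4 lay above every WT gland, and its difference was 0.33 (95% interval -0.01 to 0.67) with an adjusted p of 0.654 in limma and a two-sided exact permutation p of 0.0397. A_52_P138563 gave 0.32 (95% interval -0.17 to 0.82), with overlap. Sec61g, a small channel subunit, had the only negative estimate of the class. It read 141604, 73410.2, 138110.0 and 107091 in WT and 157923, 88691, 103161, 105167 and 110396 in hNAG-1, with extremes in WT 2 and hNAG-1 1, and its difference was -0.01 (95% interval -0.55 to 0.54).

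Ssr2 codes for the beta subunit of the translocon-associated protein complex and had the lowest unadjusted p of all members by their brightest probes (A_51_P314264, mm7 chromosome 3, 88697598 to 88697657, plus strand). Its scaled intensity was 37749, 25943, 36537 and 32541 in WT 1 to 4. In hNAG-1 1 to 5 it was 46675, 50412, 43759, 39242 and 35258. All hNAG-1 glands but 1 lay above every WT gland and hNAG-1 5 lay below WT 1 and WT 3. WT dams averaged 33192 ± 5320.4 (SD, n = 4) and hNAG-1 dams 43069 ± 5980.2 (SD, n = 5). The difference was 0.38 (95% interval -0.01 to 0.77), with an unadjusted p of 0.0533 and an adjusted p of 0.654 in limma and a two-sided exact permutation p of 0.0476. It fell to 0.27 without WT 2 and 0.17 with slide as a block, and it was 0.23 without scaling. The other subunits of this complex had estimates of 0.09 for Ssr1, 0.18 for Ssr3 and 0.08 for Ssr4. Sec62, an auxiliary channel protein found by accession, read 3004, 3032, 3198 and 2530.3 in WT and 3017, 4486, 3364, 4225 and 3090.4 in hNAG-1, and hNAG-1 2 and 4 stood above the rest with a difference of 0.29 (95% interval -0.09 to 0.68). Sec61b had 0.13. Sec63, the J-domain partner of the channel, had 0.17 by its brightest probe, while its other probes gave 0.29, 0.08 and -0.53.

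Vesicle coat genes had the highest median of the classes, 0.21, with 6 of 6 directly named members higher. WT 2 was the lowest array for all 6, and without it 4 of 6 were higher with a median of 0.09. Without scaling the class median was 0.06. With slide as a block it was 0.06, below the medians of degradation (0.34), translocation (0.15) and chaperone genes (0.07), so the order of the classes was not kept. In that fit the median over all probes was 0.19, and 0.09 over the probes well above background on all 9 arrays. Sec23b codes for a COPII inner coat subunit (A_52_P387818, mm7 chromosome 2, 144331310 to 144331369, plus strand) and was the most variable member. It read 9535, 5669.8, 21831 and 11552 in WT 1 to 4 and 27681, 17261, 9778, 18581 and 9121 in hNAG-1 1 to 5. Its highest array, hNAG-1 1, was 4.88-fold above its lowest, WT 2, and WT 3 lay above 4 of the 5 hNAG-1 glands. The difference was 0.49 (95% interval -0.51 to 1.48), 0.18 without WT 2 and -0.30 with slide as a block. A second Sec23b probe gave 0.62.

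Sec23a, its paralogue, was the least different of the class. Its values were 420.3, 339, 416 and 384 in WT and 452, 366, 363, 408 and 423 in hNAG-1, and the difference was 0.05 (95% interval -0.27 to 0.36). Its second probe was well above background on no array. Estimates for the outer and cargo-binding COPII subunits were 0.20 for Sec31a and 0.08 for Sec24d. The COPI subunits Copa, Copb1 and Copb2 had 0.20, 0.21 and 0.21 by their brightest probes. The second Copb2 probe passed the background call on 1 WT array of 4 and no hNAG-1 array, so it gave no usable difference.

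**Figure D4:**
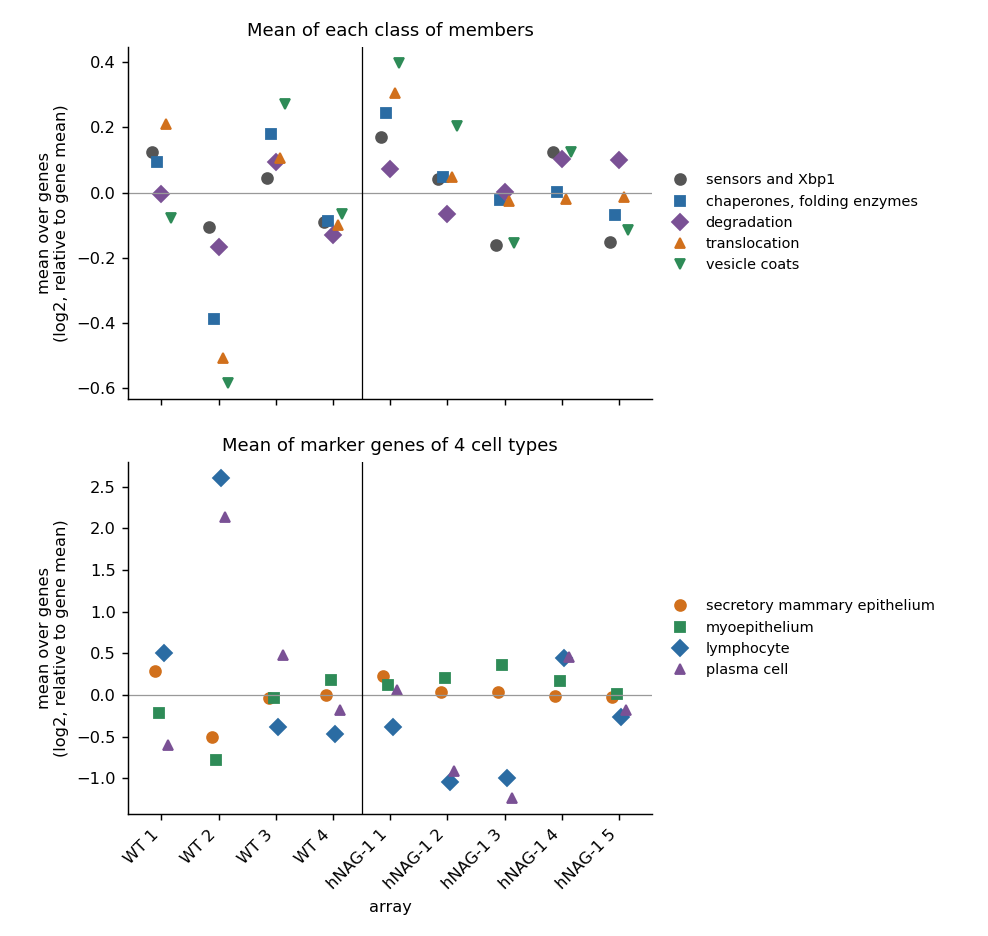
Mean log2 scaled intensity of each class of members (upper panel) and of marker genes of 4 cell types (lower panel), each gene taken relative to its own mean, in each of the 9 arrays (horizontal axis, WT left of the line). Under the 75th-percentile scaling WT 2 has the lowest chaperone, translocation and vesicle coat means, -0.39, -0.51 and -0.58, and the highest lymphocyte mean, 2.60.

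Copb1 and Copa each had a second probe whose genotypes did not overlap. The Copb1 probe (A_52_P230705, mm7 chromosome 7, 110153459 to 110153518, minus strand) read 57.4, 67.4, 66.1 and 65.0 in WT and 74.1, 90.1, 73.0, 106 and 76.4 in hNAG-1. Its difference was 0.38 (95% interval 0.03 to 0.73), with an unadjusted p of 0.038 and an adjusted p of 0.654 in limma and a two-sided exact permutation p of 0.0159. With slide as a block it was 0.21 (unadjusted p of 0.492 in limma). The Copa probe (A_52_P272519, mm7 chromosome 1, 172069908 to 172071578, plus strand) read 155, 162, 159 and 158 in WT and 166, 199, 163, 238 and 205 in hNAG-1. Here the lowest hNAG-1 array exceeded the highest WT array by less than 1 unit, and the difference was 0.28 (95% interval -0.06 to 0.62). The brightest Copa probe read 12672, 10749.8, 15011 and 13433 in WT and 15057, 17769, 13790.2, 14108 and 13726 in hNAG-1, and the brightest Copb1 probe 7249, 5349.6, 7793 and 6927 and 8858, 8920.0, 6924, 7866 and 6857. Both overlapped between genotypes, WT 3 lying above at least 2 hNAG-1 glands for each.

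Over all 74 probes of the directly named members, 2 had an unadjusted p under 0.05 in limma, both higher in hNAG-1. Of all probes, 5.62% had such a p in either direction and 1.2% had it and were higher. Without overlap between genotypes were 3 of the 74, all higher, against 0.695% of all probes. The 3 probes of Derl1, Copb1 and Copa that did not overlap were each the most 5′ probe of their gene. For 17 members with probes at least 1000 bases apart and well above background on all 9 arrays, the most 5′ probe had the higher difference in 12 (70.6%), with a median excess of 0.03. Over all 3764 such genes of the array it was 53.6%, with a median excess of 0.02. The contrast of 5′ over 3′ probe, relative to the gene mean, was highest in WT 2 for members (0.18) and for all genes (0.16), and next in hNAG-1 5 (0.15 and 0.08). Its part in the differences was not tested.

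The pattern of each member over the 9 glands was set against that of Xbp1. This look at the data was chosen after values had been seen, and 39 relations were computed. Of the 39, 31 had a positive correlation at the 75th-percentile scaling, against 44.5% of all other probes, 37 without scaling (85.9%) and 23 after quantile normalization (53.4%), and 0 passed an adjusted p of 0.05 by Pearson's r or Spearman's rho. At an unadjusted p under 0.05 there were 5 by r, all positive, against 12% of all other probes, which is near the members' share. By rho there were 7, all positive, against 4.91%. Vesicle coat genes were 3 of the 5 (Copa, Sec31a and Copb1) and 5 of the 7. The coat genes Sec24d and Sec23a had r = 0.34 and r = 0.0031. For Sec31a the exact test over all pairings gave Pearson r = 0.76 (permutation p = 0.0162, adjusted p = 0.182) and Spearman rho = 0.92 (permutation p = 0.00131, adjusted p = 0.0512). For Copa it gave Pearson r = 0.80 (permutation p = 0.00631, adjusted p = 0.182) and Spearman rho = 0.88 (permutation p = 0.00308, adjusted p = 0.0586).

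Dnajb9, one of the cochaperone genes, had Pearson r = 0.75 (exact permutation p = 0.0187, adjusted p = 0.182). Its Spearman rho was 0.87 (exact permutation p = 0.00451, adjusted p = 0.0586). The other Dnaj genes of the list, Dnajb11 and Dnajc3, whose promoters hold the elements above, had r = 0.37 and r = -0.02. Leaving out hNAG-1 4 and hNAG-1 2, the arrays farthest from the median of Xbp1, r over the remaining 7 arrays was 0.90 for Sec31a, 0.87 for Copa and 0.91 for Dnajb9. Sec62 had the highest r of all at 0.83, and it rested on those same arrays, since r was 0.04 without them. Without WT 2, r was 0.80 for Sec31a, 0.79 for Copa and 0.69 for Dnajb9. Within genotypes, after each genotype mean was removed, it was 0.71, 0.74 and 0.72. After each slide mean was removed, which leaves WT 1 with no weight, it was 0.67, 0.69 and 0.61. For the same genes in that order it was 0.87, 0.89 and 0.67 without scaling and 0.64, 0.79 and 0.55 after quantile normalization. Ern1, whose product splices Xbp1 mRNA, had the lowest r at -0.60 (exact permutation p = 0.0914) under this scaling. Its r was -0.02 without scaling and -0.43 after quantile normalization, and the lowest were then Sec61g (-0.06) and Ppib (-0.70), in that order. All genes read on one array share its scaling factor and the tissue makeup of that gland. The part of both in these correlations was not tested.

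**Figure D5:**
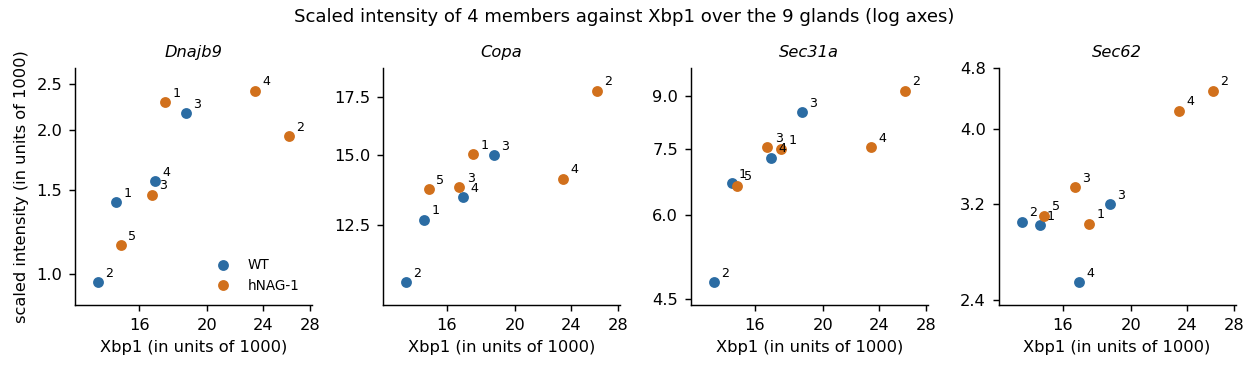
Scaled intensity of Dnajb9, Copa, Sec31a and Sec62 (vertical axes, in units of 1000) against that of Xbp1 (horizontal axes, in units of 1000) in the 9 glands, all on log axes, with WT in blue, hNAG-1 in orange and the replicate number beside each point. In the Sec62 panel hNAG-1 2 and hNAG-1 4 stand alone at the upper right and the other 7 glands show no trend (r = 0.04).

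Of 72 further genes of ER stress, folding, degradation, translocation and vesicle traffic, 72 were measured, 56 were higher and 16 lower, and the median was 0.14. Without WT 2, 43 of 72 were higher, against 45% of all probes, with a median of 0.01. In limma over all 9 arrays 0 passed an adjusted p of 0.05. At an unadjusted p under 0.05 there were 2, both higher, against 1.2% of all probes called higher and 5.62% called in either direction. That count was 0 without WT 2 (4.31% of all probes) and 6 without hNAG-1 5 (14.4%). Over all 9 arrays 3 of the 72 were without overlap, all higher, against 0.695% of all probes. Srp68, a subunit of the signal recognition particle, read 2763, 2534, 3620.5 and 3595 in WT and 4807, 6360.0, 4056, 4369 and 3663 in hNAG-1. No values overlapped, and its difference was 0.56 (95% interval 0.11 to 1.02) with an adjusted p of 0.654 in limma. It was also the highest estimate of the 72. Sec13, a COPII outer coat subunit listed as Sec13l1 on the array, read 3969, 3791, 4532 and 4173 in WT and 4989.9, 6545, 4871, 5052 and 4769 in hNAG-1, again without overlap, with a difference of 0.34 (95% interval 0.02 to 0.67). With slide as a block the estimates were 0.19 and 0.20. Cope, a COPI subunit, was the third gene without overlap, with 0.30. The lowest estimate was that of Mbtps2, the protease that cuts ATF6, at -0.26 (95% interval -0.89 to 0.36), where hNAG-1 1 to 4 lay below every WT array and hNAG-1 5 above every one. Without hNAG-1 5 it was -0.48 (unadjusted p of 0.0347, adjusted p of 0.292 in limma), and with slide as a block 0.53, the opposite sign. Of the 5 hNAG-1 arrays, 3 passed the background call for it. Of the 72, 11 genes of stress-induced transcription, among them Atf4 and Ddit3, had a median of 0.01, with 7 higher and 4 lower.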

How the data were processed

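The study hybridized Cy3-labelled RNA from each dam to an Agilent Whole Mouse Genome array, and the authors deposited Feature Extraction 9.5 files (version per the labels) with the processed signal intensity of every spot, already background-corrected. Here the intensity was averaged over repeated spots of a probe after control spots were left out, scaled so that every array had the same 75th percentile, and taken as log2. The 41174 probes were fitted with limma 3.58.1 in R 4.3.3 (lmFit, eBayes, 4 WT against 5 hNAG-1, two-sided), with Benjamini-Hochberg adjustment over all probes. Single values were also given an exact permutation test over 126 splits of the arrays, whose smallest two-sided p is 0.00794. Each gene is represented by its brightest probe. Probe levels of different genes were not compared. Well above background is the call of the scanner software, made on 59.8% to 76.1% of probes per array; the number of arrays limits the precision.

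Members, classes, the other pathway genes and the marker lists were chosen with earlier results of these data known. Named with values per array are the sensors, 6 well-known targets and channel genes, the highest and lowest estimate of each class, and any member with a probe at an unadjusted p under 0.05 or without overlap. Probe positions are those of the array design (mm7), and promoters are those of RefSeq (GRCm38.p6). A further promoter motif is not reported here. Exon and UTR annotation was not used here. The deposited summary table held the same processed signals and was not used further. Alternatives covered background correction, scaling, flags, dim probes, the methods' test (a plain 2-group test), variance models, slide, each mouse and the choice of probe. The fit was tested on simulated data.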

Additional observations from a re-analysis of the deposited data

Results flagged for a closer look

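Sec61b, a small subunit of the translocation channel, had 1 hNAG-1 gland far from the other 4. hNAG-1 1 read 196533, against 155475 to 164158 in hNAG-1 2 to 5, a gap that on the log2 scale was 0.768 of the whole range of the genotype against a limit of 0.71 for 5 arrays. It was the only such case among 80 groups examined, of which chance would mark about 1 in 20. hNAG-1 1 also had the lowest 75th percentile of raw signal.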

How the results depend on the processing

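The count of members with an adjusted p under 0.05 was 0 under every alternative run. Over all probes that share was 0.333% with slide as a fixed block and 0.522% without hNAG-1 5, and at most 0.00373% in the other alternatives. At an unadjusted p under 0.05 the count was 1, always Ssr2, with normexp background correction, median scaling, the filter on dim probes, the methods' test, array weights and a robust eBayes fit with a trend, and 0 to 1 when each mouse was left out (1 without WT 1 or without hNAG-1 5). Over all probes the share in those settings ran from 2.58% with normexp to 15.2% with array weights, and from 2.82% to 14.4% when each mouse was left out. Class medians moved by more than the SD of the class mean between arrays, pooled within genotypes, in these cases. The sensor median of -0.03 became 0.18 with median scaling, -0.18 without scaling and -0.18 with slide as a fixed block or on slide 3 alone. The chaperone median became 0.27 with median scaling. The degradation median became 0.32 with median scaling, -0.036 without scaling and 0.34 with slide as a fixed block or on slide 3 alone. On slide 3, hNAG-1 5 alone stands for its genotype and was assumed to vary like the WT arrays. Leaving out the scaling moves the estimate of every probe by the same -0.15, and median scaling moves it by the same 0.21. The causes of the other moves were not tested. Estimates changed sign for 17 of 37 members without scaling, 14 without WT 2, 11 with slide as a block, 8 with quantile normalization and 7 with median scaling. Replicate numbers did not pair the arrays (correlations of same-numbered deviations 0.28, -0.20, -0.14 and -0.31); with the replicate number as a block, which drops hNAG-1 5, 0 members were called and the 5 class medians were 0.03, 0.11, 0.06, 0.13 and 0.25. Matching by accession or an older symbol gave 0 of 39 and 0 of 40.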
